A study of Mus musculus with 108 samples.

Results

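Gene expression in the testis of the inbred mouse strain 129S2 was set against that of 5 other inbred strains. The 129S2 testis arrays were 3 (animals 2, 3 and 4) of the 18 testis arrays of a series that covers 6 tissues, and the comparison used the other 15, 3 each from C57BL/6J, A/J, AKR/J, C3HeB/FeJ and DBA2/J. All animals were males aged 11 to 14 weeks, and the labels name no treatment and no engineered allele for any strain. The 129S2 mice were supplied by Charles River (France) and the other 5 strains by The Jackson Laboratory, so strain and supplier cannot be told apart. RNA was prepared from the whole organ, and the labels' protocol speaks of pools although each title names a single animal. Each of 18194 genes was read from 1 Affymetrix probe set as a log2 signal, on which 1 unit is a 2-fold difference. A gene was called apart when its 129S2 mean lay on the same side of each of the 5 other strain means and the largest of the 5 limma p values, after Benjamini-Hochberg adjustment over all genes, was under 0.05.

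The testis makes sperm in its seminiferous tubules, where spermatogonia divide, enter meiosis as spermatocytes and mature as spermatids that build an acrosome and a flagellum. Sertoli cells support the germ cells, peritubular myoid cells wrap the tubules, and Leydig cells between the tubules make testosterone from cholesterol. Each inbred strain is a near-uniform genotype, and 129S2 belongs to a group of strains known for embryonic stem cell lines and for testicular germ cell tumours. Whole-testis RNA pools all these cells, so that a lower signal from fewer cells of a type and one from less RNA per cell cannot be told apart.

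Median signals were 5.75 to 5.78 on the 129S2 testis arrays and 5.74 to 5.78 on the other 15. After each gene's mean was subtracted, every one of the 18 testis arrays was nearest to an array of its own strain. Each 129S2 array correlated with its nearest array at 0.881 to 0.894. The 81 measured spermatid and sperm genes averaged 11.35 to 11.39 on the 129S2 arrays and 11.30 to 11.43 on the others, far above the array medians, as the tissue label has it. The 15 measured epididymis genes averaged 4.39 to 4.48 on the 129S2 arrays and 4.40 to 4.88 on the others. Outside testis, 2 of 18 brain arrays (129S2 animal 2 and AKR/J animal 2) were nearest to each other, at a correlation of 0.669, and 3 of 18 heart arrays (129S2 animals 1 and 3 and AKR/J animal 3) were nearest to another strain. Most counts and single values that rest on brain or heart are therefore given with and without those arrays. The heart values without them rest on a single 129S2 array.

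In 129S2 testis, 249 genes (1.37% of all tested) lay apart from all 5 other strains. Of these, 123 genes (0.676%) were higher and 126 (0.693%) were lower in 129S2. In all 249 the 3 arrays of 129S2 fell outside the range of the 15 others, a separation that 4.6% of all genes tested showed. The gap between 129S2 and the nearest other strain mean had a median of 0.4855 in size, reached 0.5 in 53 higher and 61 lower genes, 1 in 13 higher and 18 lower genes, and 2 in 2 higher and 4 lower genes. In 187 of the 249 genes the gap was wider than the whole range of the 5 other strain means, and so it was in all 31 genes with a gap of at least 1. These counts describe genes that the rule chose for lying beyond all 5 strains, and nothing is read from them.

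The nearest strain was C57BL/6J for 67 of the 249 genes, A/J for 50, AKR/J for 46, C3HeB/FeJ for 46 and DBA2/J for 40. The same rule applied to each strain in turn called 249 genes for 129S2, 326 for C57BL/6J, 359 for AKR/J, 170 for DBA2/J, 74 for A/J and 54 for C3HeB/FeJ. These 6 counts share their arrays and were not tested against each other.

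**Figure D1:**
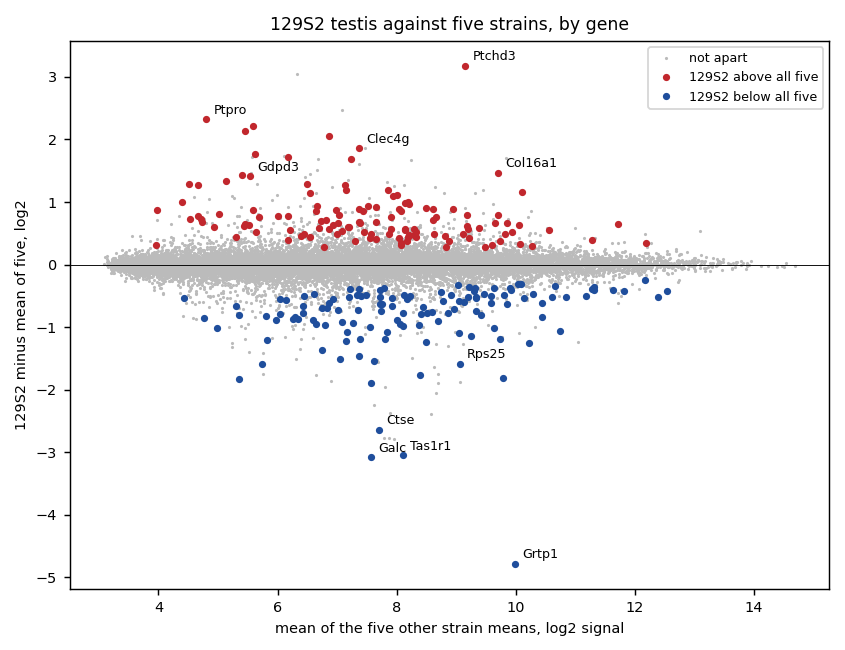
Each point is 1 of 18194 genes, with the mean of the 5 other strain means in testis (log2 signal) on the x axis and 129S2 minus that mean (log2) on the y axis; red points are the 123 genes with 129S2 above all 5 strains and blue points the 126 genes with 129S2 below all 5. Grtp1 is the lowest point and Ptchd3 the highest red point, and grey points nearly as far out belong to genes whose 129S2 level was shared with another strain.

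**Figure D2:**
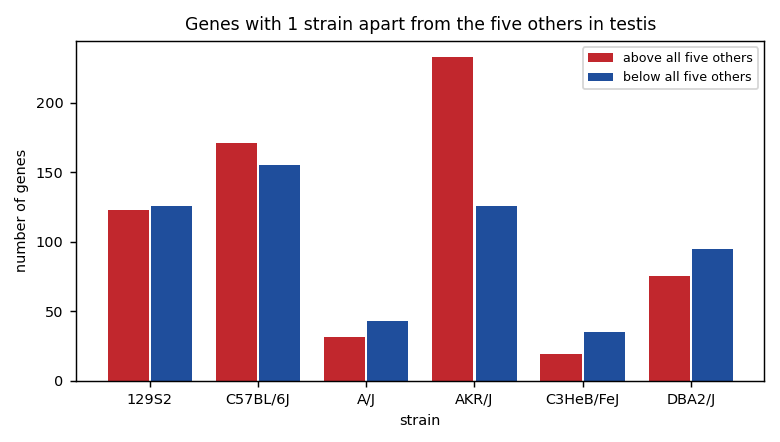
Bars show, for each strain (x axis), how many genes (y axis) had that strain above (red) or below (blue) all 5 others in testis. 129S2 had 123 and 126 genes, and AKR/J had 233 above and 126 below.

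The widest gap was a loss of signal. Grtp1, which encodes a TBC-domain protein of the family that switches off Rab GTPases, read 5.38, 5.25 and 5.01 on the 3 arrays of 129S2, against 9.88 to 10.21 on the 15 others. The 5 other strain means lay between 9.96 and 10.01, so all 5 were alike and 129S2 alone was low. Its gap to the nearest strain, C3HeB/FeJ, was -4.75 ± 0.09 (SE), a 26.8-fold lower signal (limma adjusted p = 4.36e-16). A second Grtp1 probe set, with a 129S2 mean of 6.86, was also apart, with a gap of -3.03.

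Ptchd3, a patched-domain membrane protein gene known in mouse for expression in male germ cells, showed the widest gap upwards. It read 12.38, 12.32 and 12.30 on the 129S2 arrays, against 8.90 to 9.35 on the 15 others. The groups were separated by far more than their spread, and the 5 other strain means lay between 9.03 and 9.26. The gap to AKR/J was 3.07 ± 0.07 (SE), an 8.41-fold higher signal (limma adjusted p = 4.31e-15).

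The promoters of the genes with the widest gap in each direction are shown as the reference sequence of the 2 genes the comparison turns on most. Each runs from 250 bases before to 50 after the RefSeq start site in the reference assembly GRCm38.p6, which is C57BL/6J sequence, so it does not show what 129S2 carries. Capitals mark the GC box letters GGGCGG on either strand.
Ptchd3 (chr11:121829968-121830267, plus strand): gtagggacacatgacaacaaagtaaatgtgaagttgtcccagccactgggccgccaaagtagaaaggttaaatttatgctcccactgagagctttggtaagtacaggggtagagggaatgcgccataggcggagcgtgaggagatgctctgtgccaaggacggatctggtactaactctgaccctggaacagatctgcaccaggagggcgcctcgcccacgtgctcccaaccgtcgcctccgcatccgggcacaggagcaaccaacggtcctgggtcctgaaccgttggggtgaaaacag
Grtp1 (chr8:13200575-13200874, minus strand): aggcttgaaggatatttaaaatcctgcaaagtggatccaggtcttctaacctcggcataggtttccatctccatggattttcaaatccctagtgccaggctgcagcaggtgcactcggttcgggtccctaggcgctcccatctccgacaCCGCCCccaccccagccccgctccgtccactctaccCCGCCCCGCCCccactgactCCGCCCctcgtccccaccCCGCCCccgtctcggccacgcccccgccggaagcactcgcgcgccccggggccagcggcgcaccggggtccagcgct
The Grtp1 window held 5 GC boxes, the first at -101 from the start site and the last at -27, and the Ptchd3 window held none. Neither held the cAMP response element TGACGTCA, its core TGACG or the TATA letters TATAAA on either strand. Over the 230 promoters of 180 apart genes with an entry, 51.7% held GGGCGG, 29.6% held TGACG, 10.4% held TATAAA and 1.74% held TGACGTCA, the letters of which include TGACG. Over the 18009 promoters of all tested genes with an entry the shares were 52.4%, 26.4%, 9.76% and 2.5%, in the same order. The promoters of the apart genes thus held these letters about as often as those of all tested genes.

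**Figure D3:**
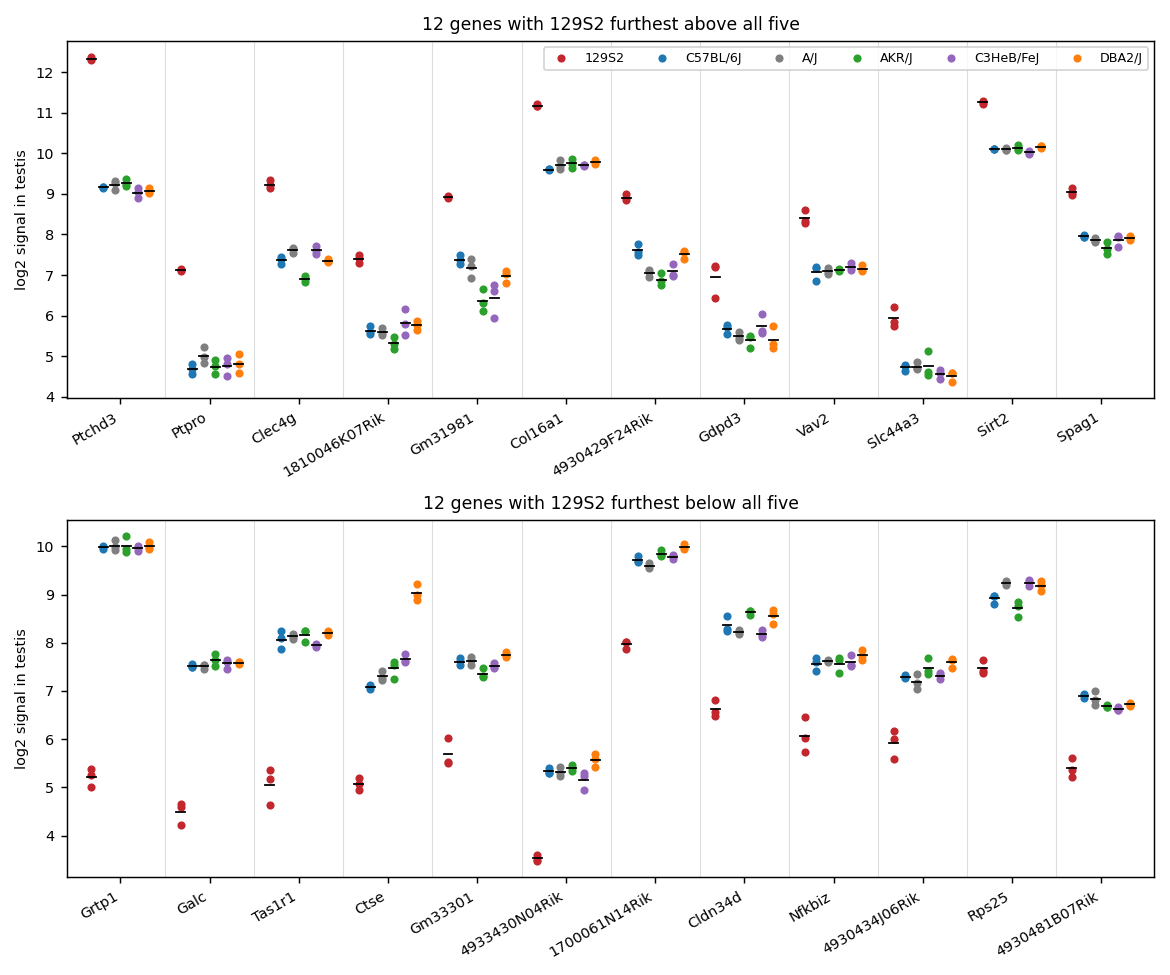
Points are single testis arrays and bars are strain means (log2 signal, y axis) for the 12 genes with the widest gap above (upper panel) and the 12 with the widest gap below (lower panel) all 5 other strains, by gene (x axis). In each gene the 3 red 129S2 points lie outside the points of every other strain, and Grtp1 sits near 5 in 129S2 and near 10 elsewhere.

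Below Grtp1 came a set of genes with a signal in 129S2 testis near the low end of the array. Galc encodes galactosylceramidase, the lysosomal enzyme that breaks down galactosylceramide. It read 4.59, 4.21 and 4.65 in 129S2, against 7.45 to 7.78 on the other arrays, a gap of -3.02 ± 0.09 to A/J (8.13-fold lower, adjusted p = 3.65e-13). The 2 other probe sets of Galc were not apart: the brighter, at a 129S2 mean of 8.93, had a gap of -0.21, and the dimmer, at 3.82, a gap of -0.11. With the brighter one in use, the call for Galc was lost (adjusted p = 0.354).

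Tas1r1 encodes a subunit of the umami taste receptor. It read 5.16, 4.63 and 5.37 in 129S2, against 7.86 to 8.25 elsewhere, a gap of -2.89 ± 0.13 to C3HeB/FeJ (adjusted p = 1.26e-10). Ctse, the gene of the aspartic protease cathepsin E, read 5.19, 4.94 and 5.07 in 129S2, against 7.05 to 9.22. The other strains also differed at Ctse, with means of 7.09 in C57BL/6J, 7.30 in A/J, 7.47 in AKR/J, 7.66 in C3HeB/FeJ and 9.03 in DBA2/J, so the gap of -2.02 ± 0.10 to C57BL/6J is the smallest of 5 unequal ones.

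Nfkbiz, which encodes the nuclear inhibitor protein IκBζ that modulates NF-κB target genes, read 6.03, 5.73 and 6.47 in 129S2, against 7.38 to 7.85. Its 3 arrays in 129S2 spread more (SD 0.373) than those of A/J (SD 0.019), yet none reached the lowest of the 15 others. Cldn34d, a claudin family gene, averaged 6.62 ± 0.17 in 129S2 (SD, n = 3), against 8.18 to 8.63 for the 5 strain means. Rps25, a protein of the small ribosomal subunit, averaged 7.47 ± 0.15, against 8.72 to 9.24. Of 46 measured ribosomal protein genes, Rps25 alone was apart.

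Further protein-coding genes with a gap below -1 were named after their values were seen. Tomm20l, a relative of the mitochondrial import receptor TOM20, read 9.04, 8.89 and 8.97 in 129S2, against 10.13 to 10.28. Gins1, part of the GINS complex of the replicative helicase, read 8.07, 7.83 and 7.95, against 8.91 to 9.21. Hspb7, a small heat shock protein gene, read 6.46, 5.83 and 6.28, against 7.03 to 7.82. On the probe sets used, all 3 genes were clear of the other strains without overlap, as were all 249 genes apart. The 2 other probe sets of Hspb7 were not apart, with gaps of -0.05 and -0.22 at 129S2 means of 6.94 and 5.73. The other Gins1 probe set was apart the same way, with a gap of -0.65. Dmkn, the gene of the secreted protein dermokine, read 3.97, 4.23 and 4.27 in 129S2, against 4.9996 to 6.38, and its call was lost in the joint fit of all tissues (adjusted p = 0.123).

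Herc6, a HECT-domain ubiquitin ligase gene, was lower on every probe set it has. The one used read 8.22, 8.17 and 7.98 in 129S2, against 9.07 to 9.39, a gap of -1.06 ± 0.07 to DBA2/J (adjusted p = 1.04e-08). Its 3 other probe sets gave gaps of -1.83, -1.93 and -1.75.

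Among genes that were higher in 129S2, Ptpro followed Ptchd3. Ptpro encodes a receptor-type tyrosine phosphatase known from kidney podocytes and neurons. It read 7.11, 7.15 and 7.10 in 129S2 testis, against 4.52 to 5.22, a gap of 2.12 ± 0.13 to A/J (4.33-fold, adjusted p = 8.2e-09). The other probe set of Ptpro gave a gap of 2.20, so both put 129S2 above a low level in all 5 strains.

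Col16a1, a fibril-associated collagen chain gene, read 11.16, 11.21 and 11.17 in 129S2, against 9.58 to 9.87. Sirt2, a NAD-dependent deacetylase that acts on tubulin among other proteins, read 11.26, 11.29 and 11.23, against 9.99 to 10.20. Both were thus bright in every strain and a further 2-fold or more brighter in 129S2, by gaps of 1.39 ± 0.06 and 1.09 ± 0.05 to DBA2/J.

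Spag1, a sperm-associated antigen gene known in the assembly of axonemal dynein arms, read 9.14, 8.98 and 9.01 in 129S2, against 7.53 to 7.9969. Vav2, a guanine nucleotide exchange factor gene, read 8.28, 8.59 and 8.33, against 6.85 to 7.29. A second Vav2 probe set, at a 129S2 mean of 9.19, gave a wider gap of 2.04, while another near the low end of the array (3.93) was not apart. Slc44a3, of the choline transporter-like family, read 6.22, 5.83 and 5.75, against 4.37 to 5.12. None of these 3 genes overlapped with any other strain.

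Gdpd3, a lysophospholipase D gene, was the least even: it read 7.22, 6.44 and 7.20 in 129S2 testis, against 5.19 to 6.04, a gap of 1.21 ± 0.18 to C3HeB/FeJ (adjusted p = 0.000763). Clec4g, a C-type lectin gene known from liver sinusoidal endothelium, gave opposite results on its probe sets. The one used read 9.34, 9.13 and 9.21 in 129S2, against 6.84 to 7.71, a gap of 1.61 ± 0.07. The other read lower in 129S2, with a mean of 6.55 and a gap of -1.13 (adjusted p = 4.33e-09), so no direction for Clec4g as a gene follows.

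Some of the wide gaps belonged to transcripts with clone-based names and no annotated function. Of 1749 genes with Rik or Gm names, 16 were apart and higher (against 0.676% of all genes) and 18 apart and lower (against 0.693%). Both counts were somewhat above the shares over all genes and were not tested against them. The widest were 1810046K07Rik (7.39 ± 0.10 in 129S2, against strain means of 5.32 to 5.83), Gm31981 (8.93 ± 0.017, against 6.36 to 7.38) and 4930429F24Rik (8.91 ± 0.08, against 6.88 to 7.61) among the higher ones (SD, n = 3). Among the lower ones were Gm33301 (5.68 ± 0.29, against 7.35 to 7.75), 4933430N04Rik (3.53 ± 0.07, against 5.16 to 5.57) and 1700061N14Rik (7.97 ± 0.08, against 9.60 to 9.98). These were followed by 4930434J06Rik (5.92 ± 0.29, against 7.18 to 7.59) and 4930481B07Rik (5.40 ± 0.20, against 6.63 to 6.90). In 4931431B13Rik, named after its values were seen, 129S2 read 6.46, 6.60 and 6.75, against 7.48 to 8.23.

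Agreement between probe sets could be checked in the genes with more than 1, and 141 of the 249 had a single one. In 26 of the others, at least 1 other probe set was apart the same way, and in 3 (Clec4g, Golm2 and 5430402O13Rik) another was apart the opposite way. For Golm2 the gaps were -0.58 and 0.55, and the first call was lost without 129S2 animal 2 or 4, any C57BL/6J animal, or DBA2/J animal 2 or 3 (adjusted p up to 0.15). For 5430402O13Rik they were -0.76 and 0.57. Of 206 other probe sets, 40 were apart the same way, and of the 96 with a mean of at least 6 in testis, 33 were. In Herc6, Mecr, Nap1l1 and 4933406F09Rik, all of 2 or more other probe sets were apart the same way. Nap1l1, a nucleosome assembly protein gene, averaged 10.33 ± 0.06 in 129S2, against 9.44 to 9.84, and its 6 other probe sets gave gaps of 0.46 to 0.59. A difference in sequence under a probe can change the signal without a change in transcript level, and its part in these results was not tested.

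For groups of genes, 129S2 was set against the mean of the 5 other strain means, a wider net that 3103 genes (17.1%) passed, 1690 higher (9.29%) and 1413 lower (7.77%). The median difference over all genes was 0.0049. Without 129S2 animal 2, 1092 genes were higher, the only array whose loss moved either count by over 1.5 times.

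Genes of the flagellum and axoneme, the motor of the sperm tail, were often higher in 129S2: of 69 measured, 22 were higher and 7 lower (42.0% passing, against 17.1% of all genes), with a median difference of 0.0728. Summed over the list, the mean level was 9.62 to 9.67 on the 129S2 arrays and 9.44 to 9.64 on the others, so the arrays overlapped narrowly. By strain, 129S2 averaged 9.65, AKR/J was lowest at 9.455, and the remaining strains lay at 9.57 to 9.61. The low AKR/J level thus lowered the mean that 129S2 was set against. The higher members were 15 to 23 without single arrays, and 12 in the joint fit of all tissues. Armc2, known in mouse for assembly of the sperm axoneme, was apart, with 7.90, 7.56 and 7.89 in 129S2, against 6.99 to 7.34, a gap of 0.54 ± 0.08. Dnah11, an axonemal dynein heavy chain gene, was apart too, with 7.43, 7.34 and 7.49, against 6.33 to 7.17. The Dnah11 call was lost without 129S2 animal 2 or 4, C3HeB/FeJ animal 2 or 3, or DBA2/J animal 3 (adjusted p up to 0.140).

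Other members passed against the mean of the 5 strains alone, and those given here were chosen after their values were seen. Dnah8, another dynein heavy chain gene of the sperm tail, averaged 13.63 ± 0.04 in 129S2, against 13.10 for the mean of the 5, a difference of 0.54 ± 0.06 (SE). Ccdc114, of the outer dynein arm docking complex, was higher by 0.39 ± 0.05 and Wdr63, of an inner dynein arm, by 0.34 ± 0.06. The lower members included Cfap69 (-0.40 ± 0.04), Spag17 of the central pair (-0.32 ± 0.07) and the tektin gene Tekt5 (-0.28 ± 0.05). All of these differences were well under 1 log2 unit, and the Spag17 call was lost in the mean of its probe sets (adjusted p = 0.055).

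Meiosis genes leaned the same way: of 35 measured, 10 were higher and 1 lower (31.4%, against 17.1% of all genes), with a median difference of 0.0883. The list averaged 8.86 to 8.90 on the 129S2 arrays and 8.67 to 8.86 on the others. By strain, 129S2 averaged 8.87, and the others ran from 8.70 in AKR/J to 8.82 in A/J. Without 129S2 animal 2, 6 members were higher, and without single other arrays 8 to 11. In the joint fit of all tissues 7 were higher. Syce3, a central element protein of the synaptonemal complex that joins paired chromosomes, was apart, with 10.51, 10.41 and 10.46 in 129S2, against 9.66 to 10.08 (gap 0.42 ± 0.06, adjusted p = 0.000371). Its partners in the central element also passed against the mean of the 5 strains: Syce2 by 0.35 ± 0.04, with 12.62 ± 0.018 in 129S2 against 12.27, and Tex12 by 0.29 ± 0.05, with 9.59 ± 0.011 against 9.30. Mei1, needed for meiotic recombination in mouse, was higher by 0.29 ± 0.05.

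The other germ cell lists passed about as often as all genes. Of 81 spermatid and sperm genes, 9 were higher and 6 lower (18.5%), and the counts were 4 and 4 without 129S2 animal 2, 5 and 2 without animal 4, 7 and 2 without animal 3, and 1 and 3 in the joint fit of all tissues. Odf2, of the outer dense fibres, was higher by 0.33 ± 0.05 and the chaperone gene Clgn lower (-0.32 ± 0.04), a call that another Clgn probe set did not give. Of 17 spermatogonia genes, 2 were higher: Stra8, which starts meiosis, by 0.26 ± 0.06, and the transcription factor gene Dmrt1 by 0.25 ± 0.06. The count was 1 without 129S2 animal 2 or 3 and 4 without C57BL/6J animal 12 or A/J animal 3. The Stra8 call was lost without 129S2 animal 2 (adjusted p = 0.069) and the Dmrt1 call without 129S2 animal 3 (adjusted p = 0.059). Of 23 piRNA pathway genes, 2 were higher, 1 of them without 129S2 animal 3, and 3 were lower. Of 30 sperm energy enzyme genes, 2 were higher and 2 lower. The counts were 1 and 0 without 129S2 animal 2, 1 and 1 without animal 3, and 2 and 1 without animal 4. The widest was the sperm enolase gene Eno4, at 10.35 ± 0.05 in 129S2, against 9.62 for the mean of the 5. Its difference was 0.73 ± 0.05 (limma adjusted p = 2.7e-09). Eno4 was not apart, as its 129S2 mean lay only 0.08 above that of C57BL/6J.

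**Figure D4:**
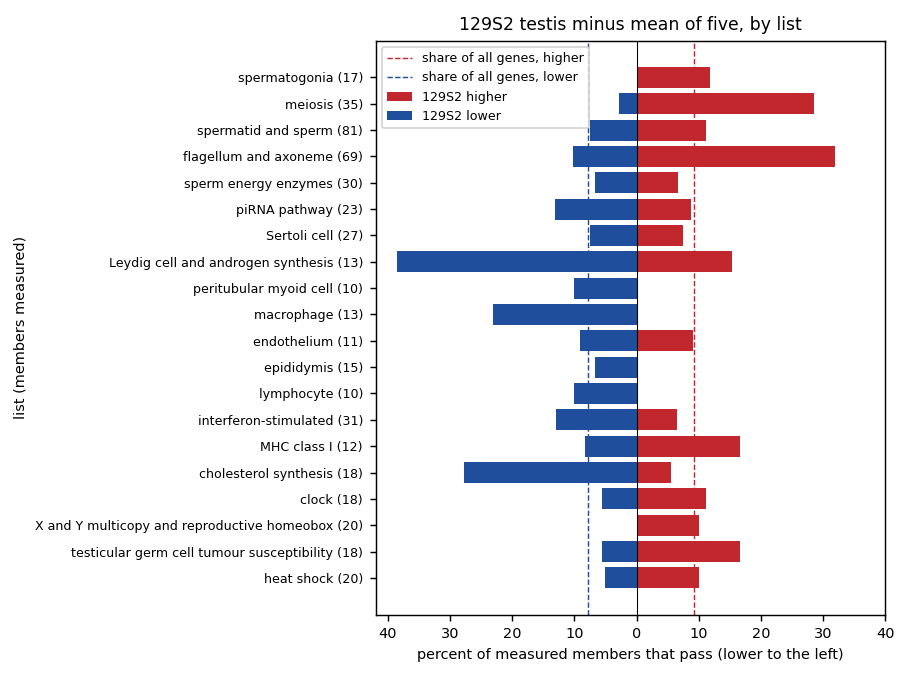
Bars give the percentage of each list's measured members (number in brackets) that passed with 129S2 higher (red, to the right) or lower (blue, to the left) than the mean of the 5 other strains in testis; dashed lines mark the shares over all genes, 9.29% and 7.77%. Flagellum and axoneme, with 22 of 69, and meiosis, with 10 of 35, reach furthest to the right, and Leydig cell and androgen synthesis, with 5 of 13, furthest to the left.

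Leydig cell and androgen synthesis genes differed in both directions. Of 13 measured, 5 were lower and 2 higher in 129S2 (53.8%, against 17.1% of all genes), with a median of -0.0245. Sult1e1, the estrogen sulfotransferase of Leydig cells, averaged 7.25 ± 0.16 in 129S2, against 8.35 for the mean of the 5. The Sult1e1 difference was -1.09 ± 0.08 (limma adjusted p = 7.2e-09), but the gap to C3HeB/FeJ was -0.30 and the gene was not apart. Hsd3b1, which turns pregnenolone into progesterone, was the member apart from all 5, with 8.83, 8.37 and 8.64 in 129S2, against 8.95 to 9.90. C57BL/6J was close behind at 9.01, the gap was -0.40 ± 0.10, and the adjusted p of 0.0496 was the last inside the threshold. Leaving out any array but 129S2 animal 2 or AKR/J animal 2 ended that call, with adjusted p up to 0.31. Its difference from the mean of the 5 was -0.81 ± 0.07 (adjusted p = 3.43e-07).

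Cyp17a1 and Cyp11a1, the cytochromes that make androgen precursors and cut the side chain of cholesterol, were lower (-0.38 ± 0.08 and -0.35 ± 0.08). Hsd17b3, which makes testosterone, was higher by 0.24 ± 0.07, a call lost without 129S2 animal 2 or 4 (adjusted p up to 0.282). The list averaged 8.65 to 8.82 on the 129S2 arrays and 8.61 to 9.38 on the others, with AKR/J highest at 9.35 and the other 4 strains at 8.70 to 8.91. 129S2 thus sat among the strains other than AKR/J in summed level, and the high AKR/J level raised the mean that 129S2 was set against. The lower members were 3 without 129S2 animal 4, and the higher ones 1 without animal 3 or 4 and 0 without animal 2. The Cyp11a1 call was lost without 129S2 animal 4 (adjusted p = 0.055).

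Cholesterol synthesis genes, which feed the same pathway, had 5 of 18 lower and 1 higher (33.3%, against 17.1% of all genes). Their median difference was -0.0052. The list averaged 8.28 to 8.35 on the 129S2 arrays and 8.23 to 8.63 on the others. AKR/J was highest at a strain mean of 8.59 and DBA2/J lowest at 8.26, with 129S2 between them at 8.31. Here too the high AKR/J level raised the mean that 129S2 was set against. Nsdhl and Msmo1, which demethylate sterols, were lower (-0.55 ± 0.06 and -0.51 ± 0.10), and Sc5d, a later step, was higher by 0.39 ± 0.07. Without 129S2 animal 4 the lower members were 2, and without animal 3 they were 3. In the joint fit of all tissues they were also 3.

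Of 27 Sertoli cell genes, 2 were higher, Cst9 and Kitl, and 2 lower (14.8% passing, near the 17.1% of all genes). The lower count was 0 without 129S2 animal 4 and in the joint fit of all tissues. It was 1 without 129S2 animal 2 or 3, C57BL/6J animal 12, A/J animal 1 or AKR/J animal 2. Leaving out C3HeB/FeJ animal 1 or 3 or DBA2/J animal 2 or 3, or taking the mean of all probe sets, also gave 1. Cst9, the cystatin testatin of fetal Sertoli cells, averaged 11.55 ± 0.11 in 129S2, against 11.64 in AKR/J, 11.47 in C57BL/6J and 8.56 to 8.77 in the other 3, so 129S2 shared the high level with C57BL/6J and AKR/J. Kitl, the ligand that keeps spermatogonia alive, was higher by 0.41 ± 0.07. Actg2, a smooth muscle actin of the myoid layer, was apart and lower, with 10.91, 10.91 and 10.89 in 129S2, against 11.18 to 11.49 (gap -0.32 ± 0.05), and it was the only 1 of 10 myoid genes that passed. Its call was lost in the joint fit of all tissues.

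Of 13 macrophage genes, 3 were lower (Lyz2 at -0.90 ± 0.11, C1qa at -0.33 ± 0.08 and Csf1r at -0.27 ± 0.07). The share passing was 23.1%, against 17.1% of all genes. The macrophage list averaged 7.09 to 7.10 on the 129S2 arrays and 6.92 to 7.66 on the others. AKR/J was highest at a strain mean of 7.57, and DBA2/J, at 6.98, lay below 129S2. Without 129S2 animal 3, 1 member was lower, as the C1qa (limma adjusted p = 0.105) and Csf1r calls were both lost. The Csf1r call was also lost without 129S2 animal 4 (limma adjusted p up to 0.0686 over both). The part of these cells in the other results was not tested. Of 11 endothelial genes, 1 was higher and 1 lower (18.2%, near the share of all genes). The 7 measured adipose genes averaged 5.71 to 6.13 on the 129S2 arrays and 5.61 to 6.66 on the others. Of 18 genes tied to testicular germ cell tumour susceptibility, 3 were higher (Kitl and Dmrt1 among them) and 1 lower. The share passing was 22.2%, against 17.1% of all genes, with a median difference of -0.0032 and no member apart. The list averaged 6.74 in 129S2, inside the other strain means of 6.67 to 6.75. The lower count was 0 without 129S2 animal 2 or 4 and 2 without C57BL/6J animal 10 or AKR/J animal 3. With the mean of all probe sets of each gene, 4 were higher and 3 lower.

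Gene families are described by their members apart, against 1.37% of all genes, and none of the counts is read as particular to a family. Of 336 measured zinc finger genes with Zfp names, 3 were apart and higher and 2 apart and lower, led by Zfp354b at 7.69 ± 0.18 in 129S2, against 6.09 to 6.86, and Zfp572 at 5.83 ± 0.19, against 6.58 to 7.06. Of 347 solute carrier genes, 3 were apart and higher and 1 apart and lower: besides Slc44a3, the zinc transporter gene Slc30a6 averaged 9.19 ± 0.10, against 8.08 to 8.30, and the bile acid carrier family member Slc10a3 6.29 ± 0.08, against 6.99 to 7.07. Of 35 Tex genes, 2 were apart and lower, with Tex45 at 8.63 ± 0.22, against 9.46 to 9.80. Of 67 F-box genes, Fbxl13 alone was apart, lower at 6.55 ± 0.19, against 7.40 to 7.67. Of 119 coiled-coil Ccdc genes, 3 were apart and lower, with Ccdc110 at 9.61 ± 0.026, against 10.07 to 10.60. Another of the 3, Ccdc91, had no lower signal on its probe set that is brightest in testis (gap 0.06), and its call was lost without any 129S2 array or without A/J animal 1 or 2 (adjusted p up to 0.138). Of 90 oxidative phosphorylation genes, Ndufs5 alone was apart.

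Some of the widest differences from the mean of the 5 strains came from levels that 129S2 shared with another strain, and the genes given here were chosen after their values were seen. Galntl6, a GalNAc-transferase-like gene, averaged 9.37 ± 0.026 in 129S2, 9.94 in C57BL/6J and 9.30 in A/J, against 4.09 to 4.15 in AKR/J, C3HeB/FeJ and DBA2/J. Sdc4 (syndecan 4) and the transcription factor gene Klf1 were high in 129S2 and AKR/J alone, at 9.33 and 9.40 for Sdc4, against 6.95 to 7.07 in the other 4, and at 8.37 and 8.43 for Klf1, against 6.15 to 6.34. Zmynd8, a chromatin reader gene, and 9430014N10Rik were low in 129S2 and C57BL/6J, at 6.61 and 6.52 for Zmynd8, against 8.86 to 9.45, and at 5.18 and 4.75 for 9430014N10Rik, against 8.71 to 8.82.

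Vnn1, the pantetheinase gene, was low in 129S2, C57BL/6J and DBA2/J (5.09, 5.29 and 5.06), against 9.59 to 9.77 in A/J, AKR/J and C3HeB/FeJ. H2-K1, a class I histocompatibility gene, averaged 9.92 ± 0.06 in 129S2, 9.82 in C57BL/6J and 9.74 in DBA2/J, against 7.19 to 7.27 in A/J, AKR/J and C3HeB/FeJ. Each of these genes split the 6 strains into a high and a low group, with 129S2 in company in either.

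The other tissues gave measurements of the same genes on other arrays, partly with the same animal numbers in their titles. Of the 249 apart genes, 107 passed with the same sign against the mean of the 5 strains in at least 1 other tissue. With the opposite sign 62 passed in at least 1, and 99 passed in none. Leaving out the 2 brain arrays that were nearest to each other made these counts 110, 68 and 93. By tissue, the same and the opposite sign passed in 66 and 32 genes in kidney (30.7% of all genes passed there), 52 and 14 in lung (13.3%), 44 and 20 in liver (12.4%), 42 and 9 in brain (5.21%) and 41 and 7 in heart (8.49%). Without the 2 brain arrays that were nearest to each other, 51 and 21 passed in brain, where 11.6% of all genes then did. Without the 3 heart arrays nearest to another strain, 45 and 20 passed in heart, where 24.4% of all genes then did, and the spread of the lone 129S2 array is assumed to be that of the other groups. The difference in testis departed from its mean over the other 5 tissues in 230 of the 249 genes (interaction contrast over all tissues, 17.2% of all genes), and in 222 of those it lay further in the testis direction. Without the 2 brain arrays these counts were 231 and 221, and without the 3 heart arrays as well 233 and 221. The genes were chosen for their testis difference, which the contrast uses again, so nothing is read from these counts or from the share over all genes.

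**Figure D5:**
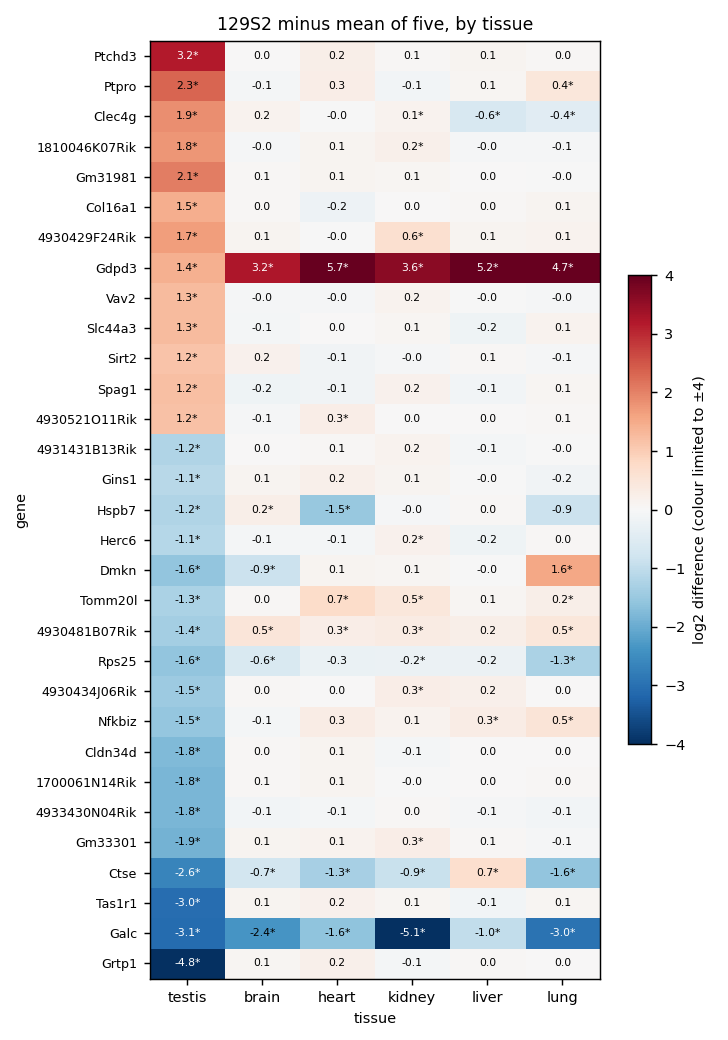
Each cell gives 129S2 minus the mean of the 5 other strains (log2, numbers and colour) for the 31 genes with a gap of at least 1 in testis (rows) in 6 tissues (columns), and a star marks adjusted p under 0.05 in that tissue's fit, with all brain and heart arrays in use. The testis column is filled while most rows are near 0 elsewhere, with Galc and Gdpd3 coloured across all 6 tissues.

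Galc and Gdpd3 were the only 2 of the 31 genes with a gap of at least 1 in testis that passed with the same sign in all 5 other tissues. Galc in 129S2 differed from the mean of the 5 strains by -5.09 ± 0.06 in kidney, -2.97 ± 0.13 in lung, -2.36 ± 0.42 in brain, -1.62 ± 0.12 in heart and -0.99 ± 0.11 in liver, by -3.44 ± 0.11 in brain without the 2 arrays and by -1.87 ± 0.15 in heart without the 3. Gdpd3 was higher by 5.66 ± 0.09 in heart, 5.17 ± 0.07 in liver, 4.66 ± 0.15 in lung, 3.60 ± 0.09 in kidney and 3.23 ± 0.46 in brain (3.93 ± 0.08 without the 2 brain arrays, and 5.59 ± 0.14 in heart without the 3), all more than its 1.41 ± 0.14 in testis. For Galc the testis difference did not depart from the mean of the others (-0.48 ± 0.24, interaction contrast adjusted p = 0.166). These Galc values come from the probe set used, and its 2 other probe sets were not apart in testis.

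Over all 249 genes, 15 passed with the same sign in every other tissue, 15 did so without the 2 brain arrays, and 14 without the 3 heart arrays as well. The widest after Galc and Gdpd3, taken in order of gap after values were seen, were Ndufs5, Adat2, Limd1, Dctn5, Epm2aip1 and Ptprf. Ndufs5, a subunit of respiratory complex I, read 9.67, 9.69 and 9.68 in 129S2 testis, against 10.51 to 10.85, and was lower in the other tissues (-0.75 to -0.22). It lost its call in heart without the 3 arrays there (-0.06 ± 0.09, adjusted p = 0.688), and differed by -0.81 ± 0.05 in brain without the 2. Adat2, a tRNA adenosine deaminase gene, averaged 9.84 ± 0.10 in 129S2 testis, against 8.83 to 9.02, and was higher by 1.35 to 1.70 elsewhere, with 2.13 in brain and 1.47 in heart without the arrays in doubt. Dctn5, of the dynactin complex, differed by -0.74 ± 0.06 in testis and by -1.07 to -0.61 elsewhere, with -1.39 in brain and -0.49 in heart without those arrays. Limd1, a LIM-domain scaffold gene, differed by -0.95 ± 0.09 in testis and -1.39 to -0.56 elsewhere, with -0.67 in brain and -1.42 in heart without them. Ptprf, a receptor tyrosine phosphatase gene, differed by -0.78 ± 0.06 in testis and by -1.14 to -0.62 elsewhere, with -1.24 in brain and -0.76 in heart without them. The brightest Epm2aip1 probe set in testis was not apart. In testis the other Limd1 probe set was not apart either (gap -0.10). Of the 2 other Ptprf probe sets, the brighter, at a 129S2 mean of 7.39, was not apart, and the dimmer was (gap -0.54). The other Dctn5 probe set was apart the same way (gap -0.82).

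Grtp1 was the opposite case, with levels in other tissues that 129S2 shared. In kidney it averaged 9.48 in 129S2, against 9.54 for the mean of the 5 strains, in liver 8.13 against 8.09 and in lung 8.21 against 8.19. None of the 5 other tissues passed (adjusted p of 0.233 or more), although without the 3 heart arrays it was higher in 129S2 heart by 0.55 ± 0.10. Sirt2 differed from the mean of the 5 strains by 0.17 in brain, 0.06 in liver, -0.04 in kidney, -0.06 in lung and -0.14 in heart, none of which passed. Without the 2 brain arrays the Sirt2 difference in brain was 0.25 ± 0.06 and passed (adjusted p = 0.00934), and without the 3 heart arrays that in heart was -0.07, against 1.15 ± 0.04 in testis.

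Other genes ran opposite ways in different tissues. Ctse differed by -1.56 ± 0.09 in lung, -1.32 ± 0.11 in heart, -0.90 ± 0.13 in kidney and -0.73 ± 0.13 in brain, lower in 129S2 as in testis, but it was higher by 0.68 ± 0.18 in liver. Without the arrays in doubt the Ctse differences were -1.04 ± 0.05 in brain and -1.73 ± 0.14 in heart. Nfkbiz was higher in 129S2 by 0.52 ± 0.09 in lung and 0.28 ± 0.09 in liver. The Clec4g probe set that was higher in 129S2 testis was lower in liver (-0.64 ± 0.08) and lung (-0.45 ± 0.06), and was higher by 0.14 ± 0.05 in kidney and, without the 2 brain arrays, by 0.22 ± 0.07 in brain (adjusted p = 0.04996). 4930481B07Rik was higher by 0.49 ± 0.11 in brain, 0.46 ± 0.07 in lung, 0.34 ± 0.06 in kidney and 0.27 ± 0.08 in heart, with 0.72 ± 0.09 in brain and 0.38 ± 0.12 in heart without the arrays in doubt. For Gm33301 and 4930434J06Rik the opposite sign passed in kidney alone, by 0.26 ± 0.08 and 0.26 ± 0.07.

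Neighbouring genes were apart together in few places. Among 18029 genes placed in chromosome order, 9 adjacent pairs were apart in the same direction and 3 in opposite directions. With gaps of at least 0.5 there were 2 runs. One held Gm3411 (9.18 ± 0.14 in 129S2, against 8.17 to 8.25), 4930521O11Rik (8.33 ± 0.14, against 7.0047 to 7.33) and 4933406F09Rik (10.70 ± 0.04, against 9.97 to 10.17), all higher. The other held Rps25 and Ccdc84 (6.13 ± 0.27, against 6.77 to 6.85), both lower, and the Ccdc84 call was lost without 129S2 animal 2 or C57BL/6J animal 10 (adjusted p up to 0.057). Whether neighbouring probe sets share transcripts was not tested.

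At the threshold, Fam204a (adjusted p = 0.049) and Hsd3b1 (0.0496) were the last genes inside, and Nol4 (0.0505) and Xrcc4 (0.0512) the first outside. Fam204a averaged 9.11 ± 0.08 in 129S2, with a gap of 0.37 to DBA2/J, and its call was lost without any array but AKR/J animal 3 or C3HeB/FeJ animals 1 and 2 (adjusted p up to 0.231). Nol4 averaged 9.44 ± 0.05, with a gap of 0.25 to AKR/J. The apart genes were not all bright: 31 of the 126 lower genes had a 129S2 mean under 6, and 25 of the 123 higher genes had a mean under 6 over the 5 other strains, where a signal near the low end of the array makes a fold a smaller figure than the change in transcript may be.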

How the data were processed

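Whole-organ RNA from 6 strains and 6 tissues was hybridised to 1-colour Affymetrix arrays. The deposited table holds log2 signals, made by the authors with RMA per the submitters' processing notes. The values were used as deposited. Of 45101 probe sets, those that are controls (64), match several genes (932) or lack a listed gene (9160) were dropped; of the 34945 kept, the probe set with the highest mean over all arrays stood for each of 18194 genes. Strain means in 18 testis arrays were compared with limma 3.58.1 in R 4.3.3 (lmFit, eBayes), adjusted by Benjamini-Hochberg over all genes at 0.05; each other tissue had its own fit, and tissues were compared in a joint fit with animal as a random block. The script was tested on simulated data. The median residual SD in testis was 0.1001, and 3 arrays a strain limit the precision. The labels' protocol speaks of pools while titles name animals, so p values measure the spread between these samples, which may be technical. Animal numbers are those of the titles; for some arrays outside testis the source name gives another number, which bears on the animal block, and without that block 229 in place of 230 genes passed the tissue contrast.

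Members and gene lists were chosen with earlier results of these data known. Genes were named by rule: the 12 widest gaps in each direction, up to 4 apart genes a list (or 2 with the smallest p), members of runs, tissue classes, threshold neighbours and probe set classes. Families without an apart member are not described. Other members of germ cell, Leydig, macrophage and cholesterol lists, further genes with a gap of at least 1, genes shared with another strain, genes found in all tissues and genes whose sign turned with another probe set were chosen after their values were seen. Alternatives were the variance prior, a floor of 6, other probe set rules, renormalization, centring, the joint fit, a replicate block and each array left out; leaving out brain and heart arrays was added after seeing the data.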

Additional observations from a re-analysis of the deposited data

Results flagged for a closer look

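Among the 24 genes with the widest gaps (12 in each direction), 9 named for their pattern over tissues are given here. Only genes that passed a limma interaction contrast over all tissues were kept, and Galc, also named for its pattern, did not pass. In each of the 9, the difference of 129S2 from the other strains in testis thus departed from its mean over the 5 other tissues. Each had either the opposite sign in another tissue, no difference elsewhere at a bright signal, or a wider difference elsewhere. The departure was -4.84 ± 0.08 (SE) for Grtp1, the widest, and 1.16 ± 0.05 for Sirt2, the genes that were bright elsewhere. It was -1.88 ± 0.15 for Ctse, -1.78 ± 0.11 for Nfkbiz, 2.02 ± 0.08 for Clec4g, -1.71 ± 0.09 for 4930481B07Rik, -1.99 ± 0.10 for Gm33301 and -1.55 ± 0.08 for 4930434J06Rik, which passed with the opposite sign in another tissue. It was -3.05 ± 0.26 for Gdpd3, which was higher in 129S2 everywhere and least so in testis. The genes were chosen for their testis values, which the contrast uses again, so its p values support nothing. With all arrays in use, 10 of the 31 genes with a gap of at least 1 passed with the opposite sign in another tissue. Tomm20l, outside the 24, is one of them, with a departure of -1.57 ± 0.08. Without the 2 brain arrays the departures were -4.84 for Grtp1, 1.14 for Sirt2 and -3.19 for Gdpd3.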

How the results depend on the processing

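The counts of genes apart kept within 1.5 times under every alternative: 86 to 119 higher and 93 to 121 lower without single arrays, 96 to 140 and 106 to 144 under the others, and 29 to 32 and 25 to 35 genes with a gap of at least 1. Against the mean of the 5 strains, 1092 to 1737 genes were higher and 1021 to 1476 lower without single arrays; the low of 1092 came without 129S2 animal 2. Of the 249 genes, 119 kept their call under every alternative run on them and 151 without each array in turn. The floor of 6 covered 212 of the 249, so the remaining dim genes were not tried against it. Of the 31 with a gap of at least 1, 28 kept the call under every alternative run on them, with Clec4g, Galc and Dmkn the exceptions. With the probe set of the highest testis mean the sign turned in 3 of the 249 genes, Clec4g (-1.13), Ccdc91 (0.06) and Wwox (0.187), and for Clgn (0.0207), which was not apart; the cause was not tested. A replicate block gave 127 higher and 130 lower genes apart and changed no list count by over 1.5 times; numbers pair no samples by the labels, 17 of 26 same-numbered pairs correlated over 0.1 (-0.189 to 0.436), and 9 of 14 arrays correlated best with their own number. Signals near the low end of the array limit the size of the gaps.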
